A study of Mus musculus with 133 samples.

Results

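The genes of the hormone receptors, Esr1 (estrogen receptor alpha) and Pgr (progesterone receptor), 5 transcriptional regulators of the luminal mammary epithelium (Foxa1, Gata3, Cited1, Elf5 and Stat5a) and the Foxa1 neighbour Ttc6 were followed across mammary tumours of 127 mice. They were taken by name from a list of 9 genes, of which 8 were measured among 19938 genes, each by a single probeset that names 1 gene. Prlr, the prolactin receptor, is not analysed here because no probeset was paired with its name in the platform table used. The tumours arose untreated in PyMT+ F1 females, whose fathers carried MMTV-PyMT and whose mothers were Diversity Outbred mice, and were taken when the animals neared a humane endpoint. Diversity Outbred mice mix the genomes of several inbred founder strains, and the MMTV promoter drives the polyoma middle T oncogene mainly in mammary epithelium. All animals therefore carry the same transgene and form 1 biological group, and the labels give no age, genotype or treatment by which to split them. RNA of whole tumours was read on Affymetrix Mouse Gene 1.0 ST arrays as a log2 level per gene. Array titles took 2 forms, a running number (48 tumours, called numbered) or a name (79 tumours, called named), and the title series was treated as a possible batch.

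The luminal layer of the mammary gland holds hormone-sensing cells, which make the estrogen and progesterone receptors, and alveolar cells, which make milk. In hormone-sensing cells the forkhead factor FOXA1 opens chromatin for the estrogen receptor, Pgr is a classic estrogen target, and CITED1 is a coactivator of the estrogen receptor. In alveolar cells prolactin acts through STAT5A, and the ETS factor ELF5 drives the secretory fate, while GATA3 is required in the luminal lineage as a whole. Ttc6, a gene of unknown role that encodes a tetratricopeptide repeat protein, lies beside Foxa1.

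The position of the members is given on GRCm38. Esr1 lies at chr10:4611989-5005633, Pgr at chr9:8898900-8968611, Foxa1 at chr12:57540628-57548029, Ttc6 at chr12:57546704-57737911, Gata3 at chr2:9857078-9887953, Cited1 at chrX:102247378-102252181, Elf5 at chr2:103412098-103450989 and Stat5a at chr11:100859351-100885169. Foxa1 and Ttc6 run on opposite strands and their annotated spans overlap by 1326 bases. Whether the probes of either gene lie in that overlap was not tested. The 250 bases before the transcript start (RefSeq, GRCm38.p6) are shown for Foxa1, Ttc6 and Cited1, which rose and fell together with Pgr across the tumours. The Pgr promoter is not shown, and it held no match to the 3 motifs marked here. Capitals mark matches, on either strand, to the forkhead motif TGTTTAC, the STAT motif TTCNNNGAA or the estrogen receptor motif AGGTCA.
Foxa1 (chr12:57546112-57546361, minus strand): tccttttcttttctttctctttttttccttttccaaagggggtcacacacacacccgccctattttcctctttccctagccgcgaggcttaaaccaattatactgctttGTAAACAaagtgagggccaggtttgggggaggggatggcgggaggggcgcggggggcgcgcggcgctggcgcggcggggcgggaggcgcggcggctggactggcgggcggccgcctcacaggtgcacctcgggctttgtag
Ttc6 (chr12:57563865-57564114, plus strand): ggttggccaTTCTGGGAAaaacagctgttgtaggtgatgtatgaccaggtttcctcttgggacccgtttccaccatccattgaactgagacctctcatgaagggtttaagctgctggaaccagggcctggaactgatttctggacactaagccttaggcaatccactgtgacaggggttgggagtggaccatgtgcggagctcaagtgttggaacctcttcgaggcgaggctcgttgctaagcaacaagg
Cited1 (chrX:102250777-102251026, minus strand): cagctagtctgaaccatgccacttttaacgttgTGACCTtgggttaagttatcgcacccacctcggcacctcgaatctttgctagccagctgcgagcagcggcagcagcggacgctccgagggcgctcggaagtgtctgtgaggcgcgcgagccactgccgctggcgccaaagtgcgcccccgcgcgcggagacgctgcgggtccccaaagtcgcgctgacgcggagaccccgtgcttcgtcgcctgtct
The Foxa1 promoter held a forkhead match at position -141 from the start, and 3.17% of 32851 mouse promoters of the same length hold that motif. The Ttc6 promoter held a STAT match near its far end, a motif in 7.02% of promoters. The Cited1 promoter held the partial receptor motif, found in 14% of promoters, and the other starts of Cited1 held none. Of the 13 promoters of the measured members, 1 held a forkhead match, 2 a STAT match and 3 the partial estrogen receptor motif. None held the GATA motif AGATAA, which 9.99% of promoters hold. The ETS motif AGGAAG, in 29.5% of promoters, had no match in the 3 sequences shown. The transcript starts of Foxa1 and Ttc6 used here are 18004 bases apart.

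The tissue label was checked against epithelial genes. The luminal keratin Krt8 lay between 10.68 and 12.65 and the adhesion gene Epcam between 10.35 and 11.66 in all 127 tumours. In 4 arrays, those of animals 14095 (numbered), 14094, 14312 and 14320 (named), r with the remaining arrays averaged 0.921 to 0.933, while this mean was at least 0.952 for each of the others. In animals 14095 and 14094 the genes of salivary secretion were high, on a list of 10 genes that was made after these values were seen. Their mean level was 12.49 in animal 14095 and 11.85 in animal 14094, against 4.61 to 8.96 in the other 125 tumours, and 6 of the 10 genes were higher in both animals than in any other tumour. The milk genes Csn2 and Wap were at 5.82 and 6.10 in animal 14095 and at 6.74 and 6.41 in animal 14094, against medians of 10.12 and 9.88 over all tumours. In 2 arrays these markers thus go against the label of a mammary tumour, and results are given with and without the 4 arrays where these move them.

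Foxa1 varied most of the 8 members, mainly through a minority of tumours in which it was high. It ran between 5.63 and 9.88 with a median of 6.20 in the numbered tumours, and between 5.24 and 9.75 with a median of 6.06 in the named tumours. The SD of levels centred within title series was 0.79, above that of 98.2% of all genes. In 4 numbered and 7 named tumours Foxa1 lay at least 1 log2 unit (2-fold) above the median of its series, and in no tumour 1 unit below it. The salivary-high animals 14095 (9.88) and 14094 (9.75) had the highest levels, followed by animals 14282 (9.31), 14280 (8.41) and 14223 (8.07). Without the 4 arrays the SD was 0.64.

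Gata3 was high in nearly every tumour. Its lowest, median and highest level was 5.55, 10.58 and 11.02 in the numbered tumours and 6.85, 10.42 and 10.92 in the named tumours. Both minima belong to the salivary-high animals, and without the 4 arrays no tumour fell below 9.52 and the SD was 0.27, against 0.60 with them. The other high-Foxa1 tumours kept Gata3: it lay between 10.18 and 10.92 in the 8 that were not among the 4 arrays.

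The receptors had a smaller SD than Foxa1. Esr1 had a lowest, median and highest level of 6.16, 7.21 and 8.35 in the numbered tumours and of 5.89, 7.09 and 8.27 in the named tumours (SD 0.43). For Pgr these were 4.87, 5.22 and 6.70 in the numbered tumours and 4.76, 5.18 and 6.83 in the named tumours (SD 0.40). The SD without the 4 arrays was 0.42 for Esr1 and 0.40 for Pgr, above the 0.27 of Gata3. Pgr was skewed upward like Foxa1: 1 numbered and 7 named tumours lay at least 1 unit above the series median and none as far below. Most Pgr levels were low, with upper quartiles of 5.41 (numbered) and 5.46 (named), below the lowest array median of these tumours, 5.868. Whether levels this low could show a fall of 1 unit was not tested. Ttc6 had the smallest SD, 0.24, with 4.22, 4.36 and 5.40 in the numbered tumours and 3.79, 4.14 and 5.32 in the named tumours. Its signal was low, since all its levels lay below the lowest array median of these tumours, 5.868. Without the 4 arrays its SD was 0.19, the same as the median over all genes. Cited1 ran over 6.50, 7.08 and 8.07 in the numbered tumours and 5.43, 6.40 and 8.02 in the named tumours (SD 0.41).

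Of the alveolar factors, Elf5 had a lowest, median and highest level of 10.14, 10.92 and 11.67 in the numbered tumours and of 8.46, 10.36 and 11.12 in the named tumours (SD 0.43). The named tumours that lay at least 1 unit below the series median numbered 4, among them animals 14094, 14312 and 14320 of the arrays that stand apart. Stat5a ran over 8.34, 9.19 and 10.06 in the numbered tumours and 7.74, 9.16 and 10.03 in the named tumours (SD 0.36). The median SD over all genes was 0.22, so every member but Ttc6 lay well above it.

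**Figure D1:**
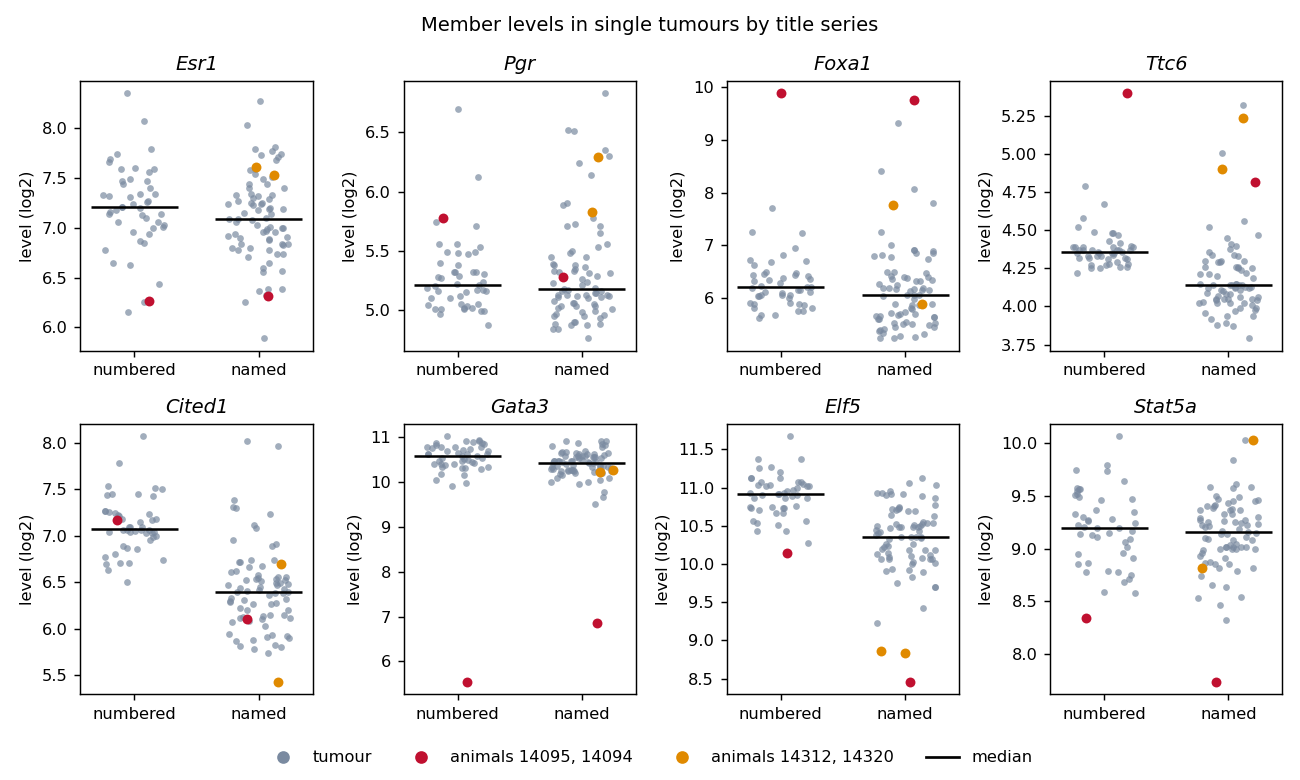
Log2 level of each member (y axis) in single tumours of the numbered (48) and named (79) title series (x axis), with a bar at the median. Foxa1 has a tail of high tumours up to 9.88, Gata3 is low only in animals 14095 and 14094, and Cited1 and Elf5 are higher in the numbered series.

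Cited1 and Elf5 were higher in the numbered than in the named tumours. The means of Cited1 were 7.12 in the numbered and 6.43 in the named tumours, a difference of 0.69 (SE 0.07, limma adjusted p = 2.42e-15). Those of Elf5 were 10.89 in the numbered and 10.31 in the named tumours, a difference of 0.58 (SE 0.08, adjusted p = 4.87e-11). Ttc6 differed by 0.19 (adjusted p = 5.82e-05), while for Esr1, Pgr, Foxa1, Gata3 and Stat5a the adjusted p lay between 0.252 and 0.617. Array medians were 6.116 to 6.288 in the numbered and 5.868 to 6.364 in the named arrays, and 69.6% of all genes were called higher in the numbered and 5.72% higher in the named tumours, the median gene differing by 0.18. Once the arrays were quantile normalized, the shares were 29.9% and 30.7%, Cited1 (0.49) and Elf5 (0.38) were still called higher, Ttc6 was not (0.03), and Pgr was called lower in the numbered tumours (-0.22, adjusted p = 0.00499). The title series, and whatever differed with it, cannot be told apart from these differences, and all relations below use levels centred within it.

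Foxa1, Pgr, Cited1 and Ttc6 moved together from tumour to tumour. Each pair of genes was tested with limma in a fit of every gene on the level of either partner (per SD of that partner, with title series as a term), and a pair was called when the adjusted p over all genes was under 0.05 in both fits. Of 28 pairs, 10 were called with a positive and 5 with a negative r, and 11 and 1 without the 4 arrays. The fit on Foxa1 called 9.54% of all genes rising and 12.3% falling, and 1.39% and 0.722% without the 4 arrays. In bulk tumours, fewer cells of a type and less RNA per cell cannot be told apart.

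Foxa1 and Cited1 were the closest pair. Their r was 0.61 (95% interval 0.49 to 0.71) and rho 0.73, both with a permutation p of 1e-05, the smallest that 100000 permutations give. The numbered tumours gave 0.56 and the named tumours 0.63, and r was 0.78 without the 2 tumours farthest from the Foxa1 median. Cited1 rose by 0.25 per SD of Foxa1 (SE 0.0287, adjusted p = 2.39e-11). The r without the 4 arrays was 0.80 (0.72 to 0.85). The salivary-high animals had the highest Foxa1 with a Cited1 of 7.17 (14095) and 6.10 (14094), close to or below the median of their series.

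Foxa1 and Pgr had an r of 0.58 (0.45 to 0.68; rho 0.61, permutation p = 1e-05 for both). The numbered tumours alone gave 0.61, the named tumours 0.56, and r was 0.65 without the 4 arrays. Pgr was above its series median in all 11 tumours with high Foxa1. In animal 14280, which had the highest Pgr (6.83), Foxa1 was 8.41, and in animal 14121, the highest of the numbered tumours in Pgr (6.70), Foxa1 was 7.71. The high tumours were not the same throughout: animal 14223 had a Foxa1 of 8.07 and a Cited1 of 8.02 with a Pgr of 5.33, near the median.

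Foxa1 and its neighbour Ttc6 had an r of 0.59 (0.46 to 0.69; permutation p = 1e-05) and a lower rho of 0.40 (permutation p = 3e-05). Numbered tumours gave an r of 0.82 and named tumours one of 0.52. Without the 4 arrays r was 0.50, with 0.52 and 0.50 in these series, and rho was 0.36. Animal 14282 had the highest level of both genes outside the 4 arrays (Foxa1 9.31, Ttc6 5.32). Pgr with Cited1 (0.46), Pgr with Ttc6 (0.41) and Ttc6 with Cited1 (0.30) were called too, and all 3 remained called without the 4 arrays, at 0.50, 0.37 and 0.52. The fit on Pgr was sparse, with 0.527% of all genes rising and 0.166% falling (0.316% and 0.0150% without the 4 arrays), and that on Cited1 called 1.41% rising and 2.14% falling. By contrast the fit on Ttc6 called 34.9% rising and 16.2% falling (10.2% and 6.35% without the 4 arrays), so a call with Ttc6 is common among genes at large.

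Esr1 had a lower r with these genes than they had with each other over all tumours, and the difference in r was not tested. Its r was 0.24 with Pgr (0.07 to 0.40; permutation p = 0.00675), 0.22 with Cited1 (0.05 to 0.38), 0.14 with Foxa1 (-0.03 to 0.31) and 0 with Ttc6 (-0.18 to 0.17), and none of these pairs was called over all genes. The fit on Esr1 called 2.11% of genes rising and 0.471% falling, and 3.67% and 2.10% without the 4 arrays. Esr1 with Foxa1 was called without the 4 arrays (r = 0.35, adjusted p = 0.00562 and 0.0096 in its 2 fits). Over all tumours the rho of this pair was 0.31 (permutation p = 0.00063). Esr1 with Pgr (0.25) and with Cited1 (0.24) were not called without the 4 arrays. In the salivary-high animals Esr1 was low, at 6.27 and 6.32. Esr1 with Gata3 was the only called pair of Esr1 over all tumours (r = 0.32, 0.16 to 0.47), and it was not called without the 4 arrays (r = 0.24).

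**Figure D2:**
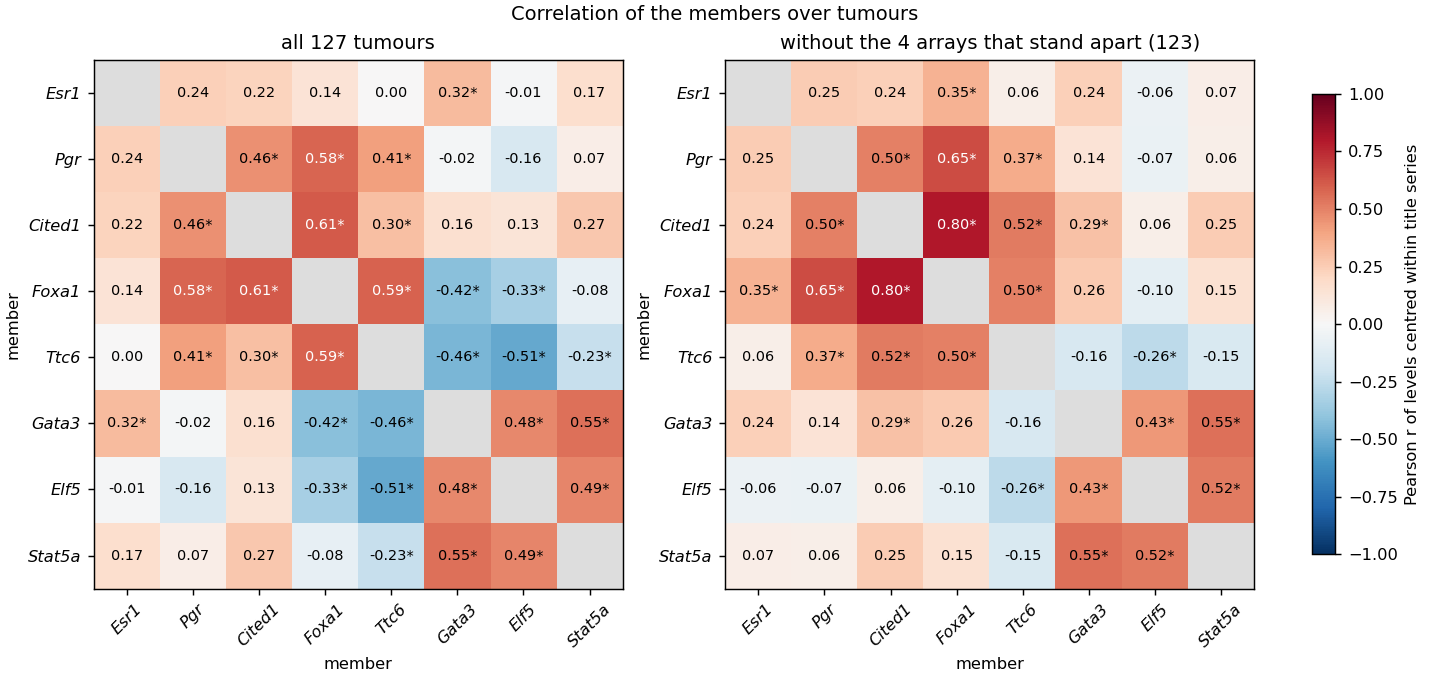
Pearson r of each pair of members over all 127 tumours (left) and over 123 tumours without the 4 arrays that stand apart (right), with levels centred within title series and an asterisk where limma called the pair in both of its fits. Foxa1, Pgr, Cited1 and Ttc6 form a positive block and Gata3, Elf5 and Stat5a form another, while the negative values between them are weaker on the right.

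Gata3, Elf5 and Stat5a formed a second group. Gata3 with Stat5a had an r of 0.55 (0.42 to 0.66; rho 0.53), Elf5 with Stat5a 0.49 (0.35 to 0.61; rho 0.54) and Gata3 with Elf5 0.48 (0.33 to 0.61; rho 0.46), each with a permutation p of 1e-05 for r and rho. All 3 pairs had positive r in both title series (0.48 to 0.68 in the numbered and 0.45 to 0.62 in the named tumours) and were called without the 4 arrays, at 0.55, 0.52 and 0.43. The fits on Gata3, Elf5 and Stat5a called 17.0%, 17.4% and 10.5% of all genes rising and 13.2%, 37.6% and 6.58% falling. These shares without the 4 arrays were 14.4%, 14.2% and 9.59% rising and 19.0%, 17.1% and 8.36% falling. Animal 14320 went against the pattern, with a Stat5a of 10.03, the highest of the named tumours, and an Elf5 of 8.86.

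The hormone-sensing members (Esr1, Pgr, Foxa1) and the alveolar members (Elf5, Stat5a) had 1 called pair of the 6 between them, and not without the 4 arrays. The pair was Foxa1 with Elf5, at r = -0.33 (-0.48 to -0.16; permutation p = 0.00067), with a rho of -0.14 (permutation p = 0.128). Without the 4 arrays its r was -0.10 (-0.27 to 0.08) and none of the 6 was called. The other 5 had r between -0.16 (Pgr with Elf5) and 0.17 (Esr1 with Stat5a). The mean z scores of the hormone-sensing and alveolar members had an r of -0.09, which was -0.06 among numbered and -0.10 among named tumours, and 0.01 without the 4 arrays. In the 8 high-Foxa1 tumours outside the 4 arrays, Elf5 was above its series median in 2 and Stat5a in 4.

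Foxa1 with Gata3 changed its sign with the 2 salivary-high animals. Over all tumours r was -0.42 (-0.55 to -0.26; permutation p = 0.0011), but rho was 0.14, r was 0.24 without the 2 tumours farthest from the Foxa1 median, which are these animals, and 0.26 (0.09 to 0.42) without the 4 arrays, called in the fit on Gata3 (adjusted p = 0.0147) and not in that on Foxa1 (adjusted p = 0.0884). Ttc6 with Gata3 had an r of -0.46 and was not called without the 4 arrays (-0.16). Ttc6 with Elf5 was the negative pair that stayed called, at -0.51 over all tumours and -0.26 without the 4 arrays. For that smaller set, numbered tumours alone had an r of -0.06, against -0.3 among named ones. A difference in slope between the series was not called there (limma interaction, adjusted p = 0.872 on Ttc6 and 0.49 on Elf5). Many genes fell in these fits: 16.2% on Ttc6 and 37.6% on Elf5, and 6.35% and 17.1% without the 4 arrays. The fifth negative pair, Ttc6 with Stat5a, had an r of -0.23 and a rho of -0.15, and it was not called without the 4 arrays (-0.15).

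**Figure D3:**
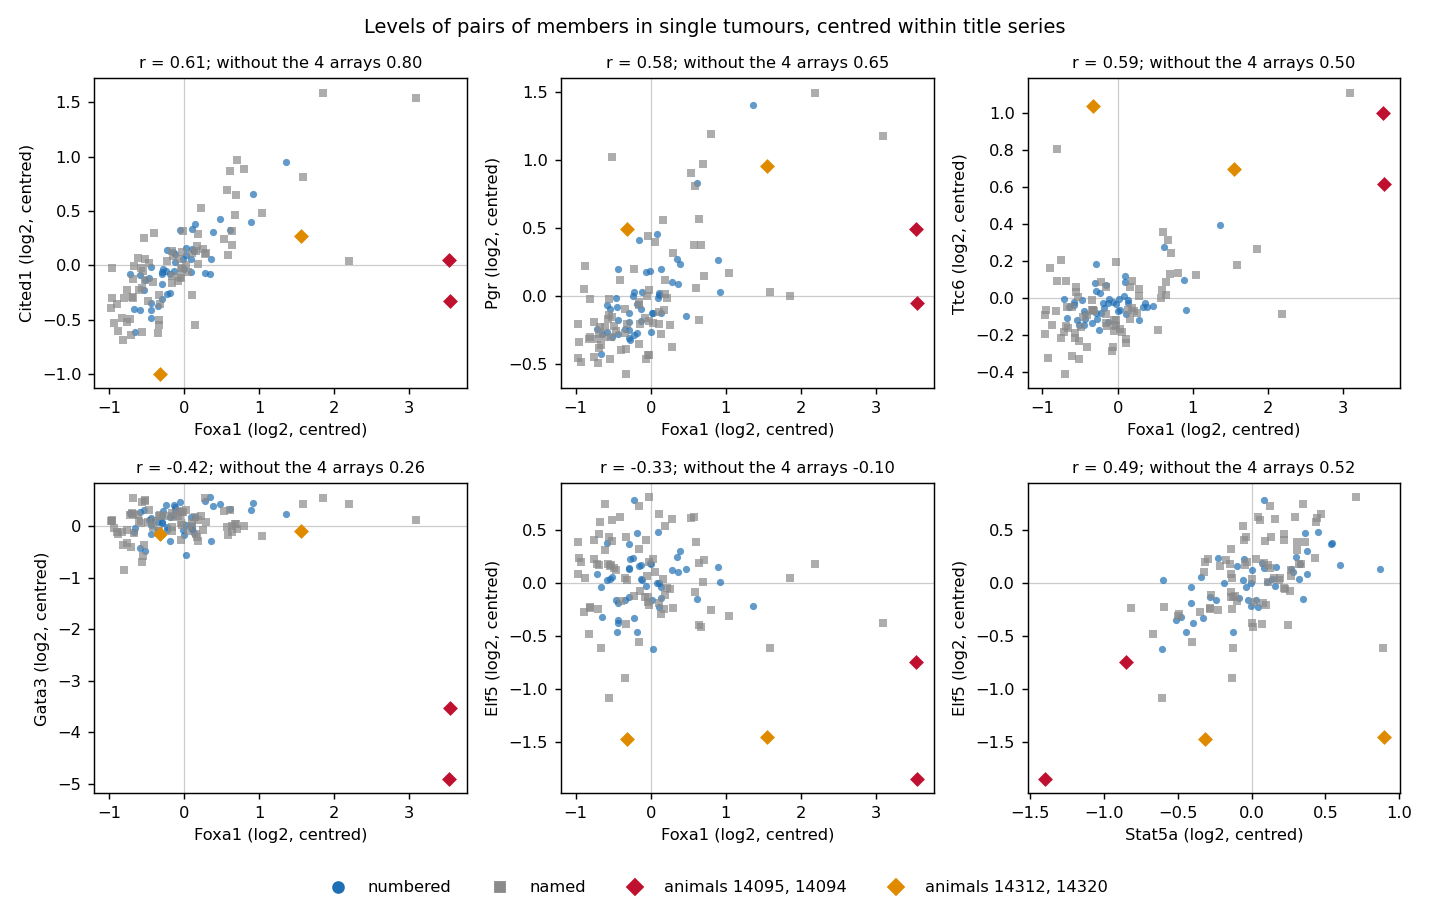
Levels of 6 pairs of members in single tumours, both axes in log2 units centred within title series, with the 4 arrays that stand apart as diamonds. Cited1, Pgr and Ttc6 rise with Foxa1 (top), animals 14095 and 14094 alone sit at high Foxa1 with low Gata3 (bottom left), and Elf5 rises with Stat5a (bottom right).

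Milk genes rose with the alveolar factors. Of 11 measured genes of milk and the prolactin response, 7 rose with Elf5 and none fell, and 7 rose with Stat5a while 1 fell. Their median slope was 0.38 per SD of Elf5 and 0.24 per SD of Stat5a, against -0.02 and 0 over all genes, of which 17.4% and 10.5% were called rising. The casein gene Csn2 rose by 1.03 per SD of Elf5 (SE 0.173, adjusted p = 4.27e-07) and by 0.92 per SD of Stat5a (SE 0.178, adjusted p = 4.86e-05). Wap, the whey acidic protein, rose by 0.69 (SE 0.0742) and 0.56 (SE 0.0827) per SD of Elf5 and Stat5a. Btn1a1, a protein of the milk fat globule membrane, rose by 0.60 and 0.34. Socs2, a STAT5-induced inhibitor of cytokine signalling, was the gene that fell with Stat5a (-0.30, adjusted p = 2.13e-05). Without the 4 arrays 10 of the 11 rose with Elf5 and 7 with Stat5a, against 14.2% and 9.59% of all genes. In each of these fits Socs2 was the 1 that fell. With Esr1, Pgr and Cited1 none of the 11 was called. With Foxa1 1 rose and 4 fell (Wap, Csn3, Btn1a1, Xdh), against 9.54% and 12.3% of all genes. None of them was called without the 4 arrays.

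Markers of luminal epithelium and of dividing cells moved with Elf5 as well. Of 9 markers of luminal epithelium, 7 rose with Elf5 and 1 fell, against 17.4% and 37.6% of all genes. With Stat5a 5 rose and 1 fell, against 10.5% and 6.58%. None of the 9 was called with Esr1, Pgr or Cited1. Without the 4 arrays Krt8, Krt18, Krt19, Cdh1 and Cldn3 still rose with Elf5. Krt7 and Epcam then fell with Elf5 (r = -0.24 and -0.27), and Cldn4 and Cldn7 were not called. Of 10 genes of dividing cells, 7 rose with Elf5 and 7 with Stat5a, against 17.4% and 10.5% of all genes. With each, 3 rose without the 4 arrays, against 14.2% and 9.59% of all genes. With the score of the luminal markers as a term of the fit, 8 of the 11 milk and prolactin response genes rose with Elf5 and 7 with Stat5a, and the r of Elf5 and Stat5a was 0.40. The mean level of the 10 dividing-cell genes lay between 5.72 and 9.39 in the numbered and between 6.58 and 9.44 in the named tumours, and their part was not tested.

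On the hormone-sensing side 13 listed genes of hormone-sensing cells and hormone response were measured. With Foxa1, 6 rose and 1 fell, against 9.54% and 12.3% of all genes. Without the 4 arrays 3 rose (Wnt4, Tbx3, Stc2), against 1.39% of all genes. With Pgr 2 rose (0.527% of all genes), with Cited1 2 rose (1.41%), and with Esr1 1 rose (2.11%) and 1 fell (0.471%). Cited1 had 4 rising without the 4 arrays (Wnt4, Tnfsf11, Tbx3, Stc2), against 1.68% of all genes. The fit on Gata3 gave 2 rising and 5 falling, against 17.0% and 13.2% of all genes. Without the 4 arrays it gave 3 rising and none falling, against 14.4% and 19.0%. With Stat5a 2 rose and 2 fell, against 10.5% and 6.58% of all genes. With Elf5 1 rose and 4 fell, against 17.4% and 37.6% of all genes. With Elf5, 1 rose and 1 fell without the 4 arrays, against 14.2% and 17.1% of all genes. Tbx3, a T-box factor of mammary development, rose with Foxa1 (0.19 per SD, SE 0.0268, adjusted p = 2.55e-08), with Pgr (0.16, adjusted p = 3.22e-05) and with Cited1 (0.15, adjusted p = 0.000601). Stc2, an estrogen-induced secreted glycoprotein, rose with Pgr (0.21, adjusted p = 0.00437), Cited1 (0.25, adjusted p = 9.36e-05), Foxa1 (0.14, adjusted p = 0.022) and Esr1 (adjusted p = 0.0191), but also with Stat5a (0.18, adjusted p = 0.00236). Wnt4, the ligand that progesterone induces, rose with Foxa1 (0.11, adjusted p = 8.77e-08) and was not called with Pgr. Greb1, an estrogen target, was called with none of the 8 members. Agr2, a secretory protein gene of estrogen-responsive cells, fell with Esr1 (r = -0.40, adjusted p = 0.00349). Areg and Calca of this list are not analysed here.

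Of 14 measured relatives and signalling partners, 6 rose and 3 fell with Elf5, in a fit that called 17.4% of all genes rising and 37.6% falling. With Stat5a 3 rose and 2 fell, against 10.5% and 6.58% of all genes. None was called with Esr1, whose fit called 2.11% and 0.471%. Without the 4 arrays Ghr, the growth hormone receptor gene, rose with Esr1 (r = 0.30, adjusted p = 0.0256), where 3.67% of all genes rose. Stat5b, the close paralog that lies next to Stat5a, rose with Stat5a (0.22 per SD, SE 0.0162, r = 0.77), and whether the probes tell these 2 genes apart was not tested. The coactivator gene Ncoa3 rose with Elf5 (0.10, adjusted p = 1.1e-06) and Stat5a (0.06, adjusted p = 0.0269). Ghr fell with Elf5 (-0.13) and Stat5a (-0.17, adjusted p = 6.88e-06), as did the forkhead gene Foxa3 (-0.16 and -0.15). Erbb4, a receptor of the EGF family, rose with Pgr (0.25, adjusted p = 0.00382) and with Cited1 (0.19, adjusted p = 0.0342). Without the 4 arrays it was still called with Pgr (adjusted p = 0.00826) and no longer with Cited1 (adjusted p = 0.0554).

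Markers of fat moved with Esr1, Foxa1 and Cited1. Of 7 adipocyte genes, 6 rose with Esr1, 7 with Foxa1 and 6 with Cited1, against 2.11%, 9.54% and 1.41% of all genes. None of the 7 was called with Pgr, Ttc6, Gata3, Elf5 or Stat5a. Their median slope was 0.40 per SD of Esr1, 0.39 of Foxa1 and 0.38 of Cited1, against 0, 0 and -0.01 over all genes. The genes that rose with Esr1, Foxa1 and Cited1 numbered 7, 5 and 6 without the 4 arrays, against 3.67%, 1.39% and 1.68% of all genes. The mean level of the 7 genes lay between 5.82 and 9.90 with a median of 6.58 in the numbered tumours, and between 5.51 and 10.04 with a median of 6.82 in the named tumours. Their part in the relations of Foxa1, Cited1 and Esr1 was not tested. The rise with Esr1 was not limited to fat. Over all tumours the fibroblast gene Fbln1 (r = 0.29) and the endothelial genes Tek (0.28), Tie1 (0.31) and Esam (0.34) were called rising too. Without the 4 arrays so were Dcn of fibroblasts (0.34), Pecam1 of endothelium (0.32) and Csf1r of macrophages (0.31). Other genes of these cell types were not called, and none fell with Esr1. Of 9 basal and myoepithelial markers 3 rose with Esr1 and 4 with Foxa1, against 2.11% and 9.54% of all genes. Without the 4 arrays 5 and 2 rose, against 3.67% and 1.39% of all genes. All 10 genes of dividing cells fell with Foxa1 and rose with Gata3 over all tumours, against 12.3% and 17.0% of all genes. Without the 4 arrays, however, 1 fell with Foxa1, 4 with Gata3 and 5 with Esr1, against 0.722%, 19.0% and 2.10% of all genes. T and NK cell genes (7 of 7) and B cell genes (5 of 5) rose with Foxa1, against 9.54% of all genes. They were not called without the 4 arrays.

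**Figure D4:**
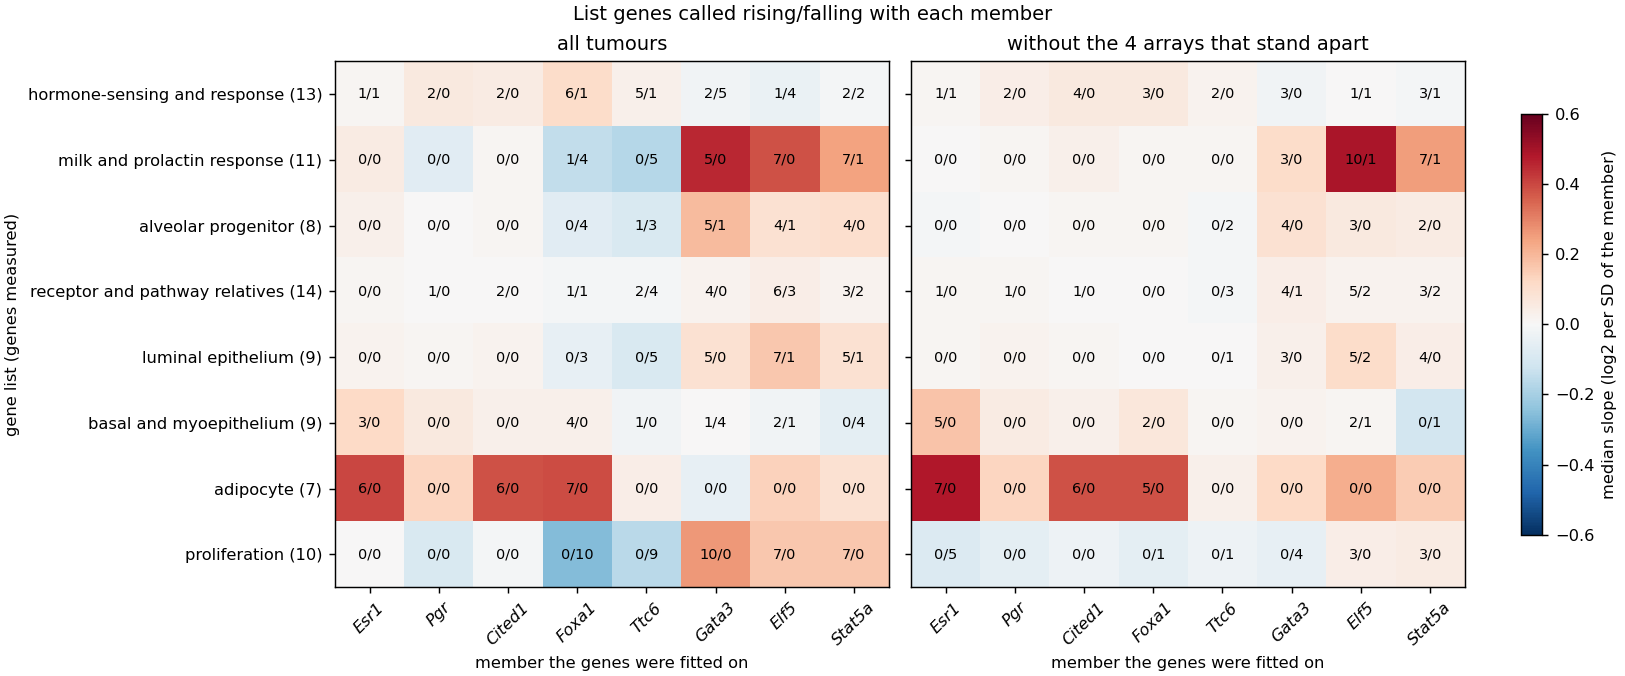
Median slope (colour, log2 per SD of the member) of the genes of 8 lists (rows, with the number measured) in the fit on each member (columns), over all tumours (left) and without the 4 arrays that stand apart (right), with the counts of genes called rising/falling in each cell. Milk genes rise with Elf5 and Stat5a on both sides, and adipocyte genes with Esr1, Cited1 and Foxa1.

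A direct contrast of the slopes on both scores, fitted together, gave 20.6% of 19930 genes with a higher slope on the hormone-sensing score and 13.9% with a higher slope on the alveolar score (5.81% and 7.69% without the 4 arrays). The largest difference towards the hormone-sensing score was that of Dmbt1, which encodes a secreted scavenger receptor protein, with slopes of 0.72 on the hormone-sensing and -0.09 on the alveolar score (difference 0.81, SE 0.0887, adjusted p = 2.78e-12, and 0.75 without the 4 arrays). Of the 10 genes that led in this direction, Dmbt1, Fgg (a fibrinogen chain) and Acpp (prostatic acid phosphatase) remained called without the 4 arrays. Amy1, Dcpp2, Atp2a3, Fads2b, Muc19, Adh1 and Smgc did not, and 4 of these (Amy1, Dcpp2, Muc19, Smgc) are on the salivary list. The 10 leading genes of the alveolar score all remained called: Lao1, Csn2, Csn1s1, Csn1s2a, Saa2, Wap, Saa1, Dkkl1, Slc34a2 and Duox1. Lao1, an L-amino acid oxidase found in milk, had slopes of -0.17 on the hormone-sensing and 0.97 on the alveolar score (adjusted p = 1.13e-13). Of the listed genes, Tbx3 (0.21), Ghr (0.26) and Prom1 (0.29) had the higher slope on the hormone-sensing score, and Xbp1 (-0.11), Krt8 (-0.18) and Lbp (-0.29) on the alveolar score, each also without the 4 arrays.

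The genes most like each member over the 127 tumours were listed by r among genes past the threshold whose sign did not differ between the title series. For Pgr they were Cyp3a57 (r = 0.74), Cxcl15 (0.71), Agtr1a (0.67), Ido1 (0.66) and Pcp4 (0.64), all with an r of 0.66 to 0.76 without the 4 arrays. Cyp3a57 is a cytochrome P450 gene, Agtr1a encodes an angiotensin receptor and Ido1 a tryptophan-degrading enzyme. Cited1 was most like Cldn6, a claudin gene (0.67), then Foxa1, Fgb, Sv2c and Dmbt1 (0.56). Foxa1 was most like Smim31, Fxyd2, Sv2c, Pcp4 and Dbp (0.71 to 0.67), and without the 4 arrays like Cited1 (0.80), Cldn6 (0.72), Sv2c (0.72), Dmbt1 (0.70) and Capn8 (0.70). Sv2c, a synaptic vesicle protein gene, was thus among the leading genes of Foxa1, Ttc6 (0.69) and Cited1 (0.58).

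Elf5 was most like Pgd (r = 0.73), an enzyme of the pentose phosphate pathway, then Mlxip, Ppp1ca, St14 and Tcirg1 (0.72 to 0.70), and least like Gimap9, Zdhhc23 and Gal (each -0.62). Stat5a was most like Stat5b, then Pradc1, Folr1, Zdhhc3 and Mocos (0.66 to 0.63), and fell with Eps8 (-0.67), Enc1 (-0.62) and Rab27a (-0.60). Gata3 was most like Lcn2, Igfbp5, Trf, Sfxn3 and Npnt (0.87 to 0.84) and least like A2ml1, Smgc and Muc19 (each -0.89). These values were smaller in size without the 4 arrays, which include the salivary-high animals. Lcn2 then had an r of 0.22 and Trf one of 0.35, while Igfbp5 (0.52), Sfxn3 (0.54) and Npnt (0.56) kept more. A2ml1 (-0.15) and Smgc (-0.18) were no longer called, and Muc19 had an r of -0.22. Esr1 had weaker partners, led by Aqp1, a water channel gene (0.45), Adig, an adipocyte gene (0.44), Nav1, Serhl and Cavin2 (0.42), and it fell with Casd1 (-0.45), Maco1 (-0.41) and Agr2.

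Among genomic neighbours, the 3 nearest measured genes on either side were read in the fit on each member. Besides Foxa1 with Ttc6 and Stat5a with Stat5b, the highest r over all tumours was that of Gata3 with 4930412O13Rik (chr2:9881246-9886767), which lies within the annotated span of Gata3 (r = 0.69, and 0.51 without the 4 arrays). Gata3 also rose with Taf3 (0.32, and 0.53 without the 4 arrays) and Echdc3 (0.32 and 0.28), while Usp6nl (0.02) was called without the 4 arrays alone (-0.41). Of the other neighbours of Foxa1, Slc25a21 (0.48), Pax9 (0.44) and Clec14a (0.24) were called over all tumours and none without the 4 arrays. Elf5 rose with BC016548 (0.43) and Apip (0.31), Esr1 with Syne1 (0.31), and Cited1 fell with Hdac8 (-0.32), all also called without the 4 arrays. None of the 6 neighbours of Pgr was called, in a fit that called 0.527% of all genes rising and 0.166% falling. The fits on Gata3, Elf5, Foxa1 and Esr1 called 17.0%, 17.4%, 9.54% and 2.11% of all genes rising, and that on Cited1 2.14% falling. Without the 4 arrays these shares were 14.4%, 14.2%, 1.39% and 3.67% rising, and 1.96% falling. The fit on Gata3 then called 19.0% falling.

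The suffix r arrays were left out of all these values, but 2 of their animals also had an array without the suffix. After centring within each set of arrays, the values of the same animal differed by 0.07 to 0.56 in size in animal 14050 and by 0.15 to 0.63 in animal 14352 over the 8 members. For Ttc6 these differences (0.56 and -0.63, suffix r minus other) were over 2 times its SD of 0.24, while for Cited1 (0.07 and 0.36) and Foxa1 (0.52 and 0.49) they lay below the SD over tumours. Those of Gata3 were 0.14 and 0.52, against an SD of 0.60 over all tumours and 0.27 without the 4 arrays.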

How the data were processed

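RNA of 133 arrays (131 animals) was measured. Values were deposited as log2 levels per probeset, produced by the authors with RMA. This method corrects background, quantile normalizes the arrays processed together and summarizes probes. Array medians differed between the sets: 6.116 to 6.288 (numbered), 5.868 to 6.364 (named) and 5.358 to 5.576 (suffix r). Whether all arrays were normalized together is not stated in the sources used here. For RMA's version and the build, nothing is given in the sources used here. Of 35556 probesets, 21789 named 1 gene in the platform table and gave 19938 genes, each by its probeset of highest mean. The 6 arrays with the suffix r, which the labels do not explain, were left out. Arrays have no read depth, and the number of tumours limits the precision.

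Levels were centred within title series. Every gene was fitted on each member with limma 3.58.1 in R 4.3.3 (eBayes, trend). Tests were 2-sided, p values were adjusted by Benjamini-Hochberg across every gene fitted, and 0.05 was the threshold. The fit was tested on simulated data. Pearson's r and Spearman's rho had 100000 permutations within title series, unadjusted over the 28 pairs. The hormone-sensing score had been planned with Prlr and was the mean z score of Esr1, Pgr and Foxa1. The alveolar score was that of Elf5 and Stat5a. Members and lists were chosen with earlier results of these data known. Named genes were all members, list genes, the 5 highest and 3 lowest r per member, the 10 largest differences of slopes per direction and the 3 nearest neighbours on either side. Genes most alike without the 4 arrays were added after the data were seen. Motifs were searched in promoters of RefSeq (GRCm38.p6). Alternatives concerned centring, normalization, the arrays used, ranks, a filter on low levels, a luminal score and the variance model. P values measure the spread between animals of 1 cross.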

Additional observations from a re-analysis of the deposited data

Results flagged for a closer look

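Relations of Gata3 differed between the title series in 3 fits (limma, title series by member interaction, adjusted over all genes). The slope of Gata3 on Foxa1, numbered minus named, was -0.46 (SE 0.102, adjusted p = 0.00278), with an r of -0.65 in the numbered and -0.28 in the named tumours. The slope of Gata3 on Ttc6 differed by -0.63 (SE 0.104, adjusted p = 5.43e-06), with an r of -0.75 in the numbered and -0.35 in the named tumours. The slope of Elf5 on Gata3 differed by -0.25 (SE 0.0651, adjusted p = 0.0128), with an r of 0.48 in the numbered and 0.57 in the named tumours. These fits called 1.61%, 10.1% and 3.07% of all genes for such a difference. Each title series holds 1 of the salivary-high animals, and without the 4 arrays none of the 3 was called (adjusted p = 0.708, 0.775 and 0.558).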

How the results depend on the processing

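Results were recomputed under 12 alternatives and, added after the data were seen, without the 2 salivary-high animals. The pairs Foxa1 with Cited1, Foxa1 with Pgr, Foxa1 with Ttc6, Gata3 with Elf5, Gata3 with Stat5a and Elf5 with Stat5a were called under every alternative that could be fitted. A mean level of at least 6 removes Pgr and Ttc6.

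Foxa1 with Gata3 (-0.42) turned to 0.26 without the 4 arrays, 0.24 without the salivary-high animals and 0.15 with ranks. Foxa1 with Elf5 was no longer called without centring (-0.23), without the 4 arrays (-0.10), without the salivary-high animals (-0.15), in the numbered tumours alone (-0.26) or with ranks (-0.10). Esr1 with Foxa1 became called without the 4 arrays (0.35) and without the salivary-high animals (0.36). Of the 6 pairs between hormone-sensing and alveolar members, 0 were called without centring, without the 4 arrays, without the salivary-high animals, in the numbered tumours and with ranks. Negative pairs numbered 3 without centring and in the named tumours alone, 2 in the numbered tumours alone, and 1 without the 4 arrays, without the salivary-high animals and with ranks. Positive pairs numbered 6 in the named tumours alone.

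Genes with a higher slope on the hormone-sensing score (4100) numbered 1636 without centring, 1710 after quantile normalization, 2200 after subtraction of the array median, 1157 without the 4 arrays, 953 in the numbered and 2232 in the named tumours alone, 1388 with ranks, 1340 at a mean level of at least 6 and 1712 with the luminal score. Those with a higher slope on the alveolar score (2767) numbered 1533 without the 4 arrays, 1661 in the numbered and 1492 in the named tumours alone, 1841 with ranks and 1609 with the luminal score. Genes higher in the numbered tumours (13875) numbered 5954 after quantile normalization, 5019 after median subtraction and 8081 at a mean level of at least 6, and genes higher in the named tumours (1141) 6123 after quantile normalization and 6624 after median subtraction. The causes were not tested. No paired analysis was possible because each tumour is a different animal of 1 group.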
